A study of Mus musculus with 2 samples.

Results

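RNA of CH cells, small circulating cells of mouse blood, was measured on 2 Affymetrix mouse arrays, and 10 genes for transcription factors that drive blood formation are described: Runx1, Tal1, Lmo2, Lyl1, Spi1, Gfi1b, Fli1, Erg, Ikzf1 and Myb. Their members were found by name, as every probe set whose platform annotation names a single gene of these 10. This gave 20 probe sets for 10 genes, of 45037 probe sets on the array and 18193 genes read by probe sets of their own. A probe set is a group of short oligonucleotides against the same transcript, and 5 of the genes had 1 probe set each while the other 5 had several. All mice were C57bl/6, of both sexes, with no treatment and no injury, and the labels give 15 animals per pool, aged 7 months, whereas the general methods of the study give fewer and younger animals. Each array held the RNA of 1 pool. The cells were sorted as small, viable, DNA-containing events without CD45 and without the lineage antigens of mature blood cells. There is 1 group, so levels were set against a fixed limit and not against other cells.

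The 10 proteins form the core of the program by which the embryo makes blood and by which blood stem cells are kept. Runx1 binds DNA together with Cbfb and is needed when the earliest blood stem cells bud from endothelium. Tal1 or its close relative Lyl1 pairs with an E protein, and Lmo2 and Ldb1 bridge that pair to a GATA factor. Spi1, also called PU.1, Fli1 and Erg bind DNA through an ETS domain, Gfi1b is a repressor of erythroid cells and platelet precursors, Ikzf1 is a zinc finger factor of lymphocytes, and Myb keeps progenitors dividing. Tal1, Lmo2, Fli1 and Erg are also well known in endothelial cells, and Erg and Runx1 in parts of the skeleton.

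Signals are log2 values, as the authors deposited them. A gene counted as above the limit if any of its probe sets exceeded 5 on array 1 and on array 2. The value of 5 was taken from the study. Its clustering left out only genes that lay under 5 on every array of all its cell types. The rule used here, on the CH cell arrays alone, is therefore a different one. Of the 10 factors, 7 were above this limit, namely Runx1, Ikzf1, Lmo2, Gfi1b, Spi1, Lyl1 and Erg, against 71.2% of all genes. Tal1 and Fli1 lay below 5 on both arrays with every probe set, and Myb lay on both sides of it with its highest probe set. With limma, which compares each mean with 5 and adjusts p over all probe sets, 6 of the 10 were above, since Erg was lost. The median of the 10 levels was 5.56, while that of all genes was 6.84. At a limit of 6 the count was 4, where 57.8% of all genes passed, and at a limit of 8 it was 0, where 37.0% passed. Over probe sets, 12 of 20 were above 5 on both arrays (57.2% of all probe sets), 11 were above it by limma (54.8% of all) and 5 below it by limma (36.4% of all). Counts at the limit of 5 therefore lay near those of the array as a whole, and none of the 10 genes passed 8.

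**Figure D1:**
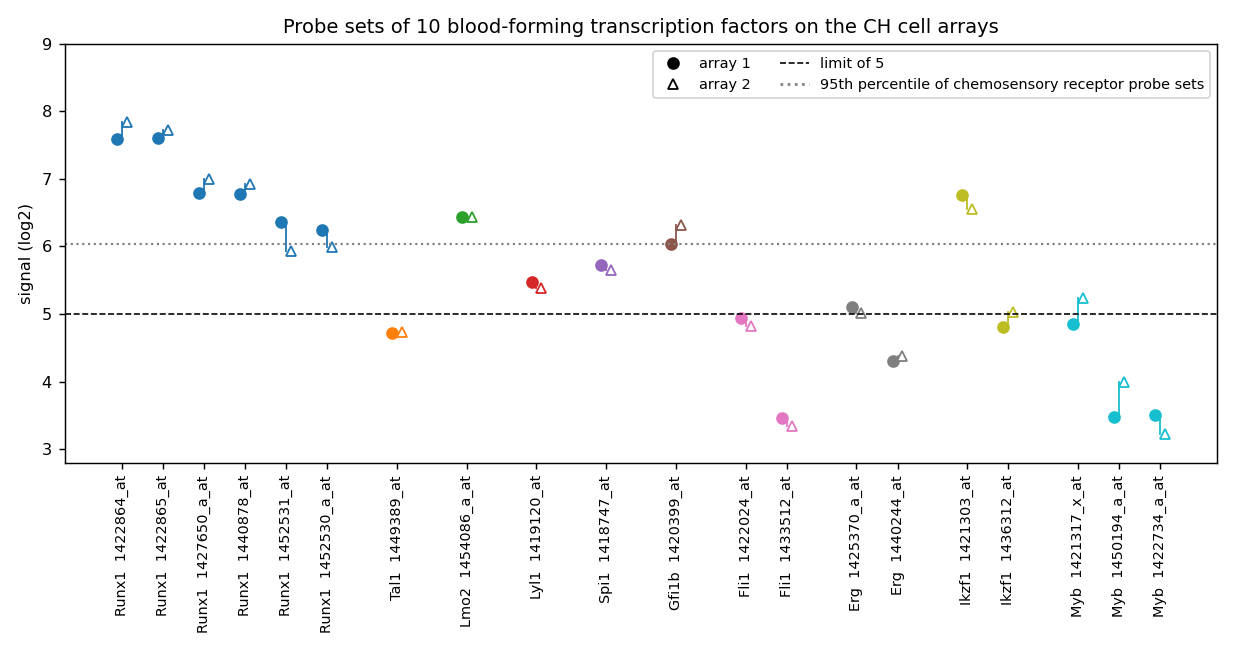
Log2 signal of the 20 probe sets of the 10 factors in CH cells, with a filled circle for array 1 and an open triangle for array 2, grouped by gene along the horizontal axis. A dashed line is drawn at 5 and a dotted one at 6.04, a level taken from the receptors of smell and taste described next. Runx1 lies between 5.94 and 7.84, and the lowest probe sets of Fli1 and Myb lie near 3.40 and 3.37.

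Receptors of smell (vomeronasal ones included) and taste gave a measure of background, though their use by CH cells was not tested. Their 84 probe sets, for 76 genes, lay around a median of 4.06, with the 95th percentile at 6.04, and 13 of the 76 genes were above 5 on both arrays. With limma, 11 of the 76 passed as well, and a low p in the test against 5 is thus no mark of a gene beyond background. The highest receptor, Vmn1r44, reached 6.92 ± 0.058 (SD, n = 2 arrays). Of the 10 factors, 9 had their highest level at or under that of Vmn1r44, and Runx1 was the exception. Signals of different probe sets depend on the affinity of their probes and say nothing of which transcript is more abundant.

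**Figure D2:**
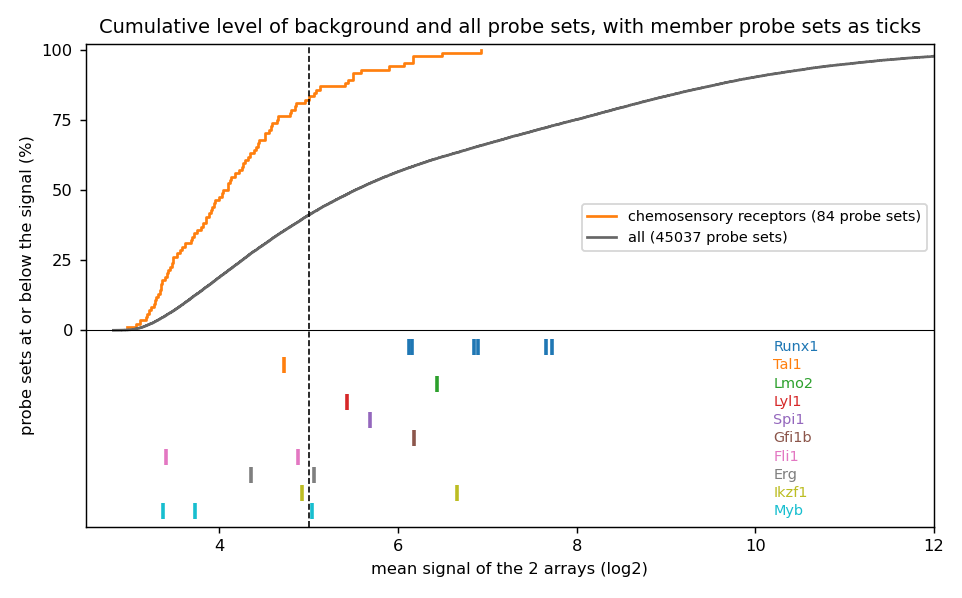
Share of probe sets at or below each mean log2 signal, for 84 chemosensory receptor probe sets and for all 45037 probe sets, with the member probe sets as ticks under the curves. The dashed line marks 5. Both highest ticks of Runx1 lie to the right of the end of the receptor curve at 6.92, and the tick of Tal1 at 4.72 lies where 76.2% of the receptor probe sets are below.

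The arrays were close to each other. Pearson's r over the probe sets of the array, no independent replicates, was 0.9967, the SD of the difference between arrays was 0.20, and the medians were 5.54 and 5.52. Housekeeping genes had a median of 13.72, with 5 of 5 above 5. Of the antigens used to remove mature blood cells, Cd5 was at 4.53 and Itgam, which encodes CD11b, at 3.85. Ptprc, which encodes CD45, gave 4.95 and 5.24 with its higher probe set, a mean of 5.10 ± 0.21 (SD, n = 2 arrays). Limma did not separate this mean from 5 (adjusted p = 0.36). The other probe set of Ptprc gave 3.49 and 3.67, a mean of 3.58 that was below 5 (adjusted p = 2.2e-05 from limma). Thus 0 of these 3 genes passed 5 on both arrays, and 1 did on array 2 alone. Ly6g and Ly76, also on this list, had no probe set naming them alone. No marker that defines CH cells was among the lists, and the label could not be checked against one. In RNA of a pool, fewer cells of a type and less RNA per cell cannot be told apart.

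Runx1 was the member with most probe sets and the only one with all of several probe sets above 5 on both arrays. Probe set 1422864_at gave 7.59 on array 1 and 7.84 on array 2, and 1422865_at gave 7.60 and 7.72. Probe sets 1427650_a_at and 1440878_at followed at 6.79 and 7.00 and at 6.78 and 6.92. The lowest were 1452531_at, with 6.36 and 5.94, and 1452530_a_at, with 6.25 and 5.99. The means ran from 7.72 ± 0.18 (SD, n = 2 arrays) down to 6.12 ± 0.18, and limma placed all 6 above 5, with adjusted p of 2.7e-04 or less. On the linear scale these means were intensities of 210 and 69.6. No receptor probe set reached the upper pair, and 4 of 84 reached the lower pair. The highest probe set exceeded the lowest by 1.34 on array 1 and by 1.85 on array 2.

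The probe sets of Runx1 did not move together from array to array. The upper 4 were higher on array 2, by 0.12 to 0.26, while both lower ones were higher on array 1, by 0.26 and 0.42. A difference of 0.42 or more was seen in 4.85% of all probe sets, and one as large as that of 1422864_at in 18.3%. The suffix _a_at marks probe sets that read alternative transcripts of a single gene. Which transcripts of Runx1 each probe set reads was not tested.

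Runx1 is known for transcription from separate promoters, a distal and a proximal one, and RefSeq lists starts at both. The 250 bases before each start are shown, in the assembly GRCm38.p6, because Runx1 was the member whose highest probe sets no receptor probe set reached, and those of Gfi1b and of the more upstream start of Tal1 are shown beside them as members above and below 5. Capitals mark matches, on either strand, to core letters bound by partner factors: for GATA factors AGATAA and the variant TGATAA, for ETS factors CGGAAG and the variant AGGAAG, for Tal1 and its partners the E-box CAGNTG, and for Runx factors TGTGGT. Matches of different motifs may overlap.
Runx1 distal, chr16:92826075-92826324, minus strand: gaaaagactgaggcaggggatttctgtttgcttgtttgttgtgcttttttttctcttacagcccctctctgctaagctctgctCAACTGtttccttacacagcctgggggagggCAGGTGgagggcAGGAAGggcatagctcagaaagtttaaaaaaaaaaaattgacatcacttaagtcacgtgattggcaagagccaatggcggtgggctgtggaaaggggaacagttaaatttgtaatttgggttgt
Runx1 proximal, chr16:92697330-92697579, minus strand: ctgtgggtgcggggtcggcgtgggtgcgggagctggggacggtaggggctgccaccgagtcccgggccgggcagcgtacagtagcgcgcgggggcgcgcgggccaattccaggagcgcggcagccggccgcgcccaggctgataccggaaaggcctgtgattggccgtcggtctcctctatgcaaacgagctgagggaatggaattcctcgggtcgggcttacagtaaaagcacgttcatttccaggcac
Gfi1b, chr2:28621983-28622232, minus strand: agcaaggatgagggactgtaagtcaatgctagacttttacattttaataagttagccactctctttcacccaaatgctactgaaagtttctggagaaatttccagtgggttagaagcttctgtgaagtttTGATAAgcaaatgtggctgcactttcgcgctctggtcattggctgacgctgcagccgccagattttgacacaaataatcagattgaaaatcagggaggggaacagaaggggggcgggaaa
Tal1, chr4:115056176-115056425, plus strand: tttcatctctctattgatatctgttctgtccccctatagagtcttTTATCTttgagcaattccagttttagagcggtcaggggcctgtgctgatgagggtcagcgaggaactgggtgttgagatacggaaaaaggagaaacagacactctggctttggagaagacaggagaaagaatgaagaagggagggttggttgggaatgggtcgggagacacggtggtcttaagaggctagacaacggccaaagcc

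The distal window of Runx1 held 2 E-box letters and 1 ETS core, and its GC content was 45.6%. The proximal window held no match, with a GC content of 67.6%. The windows of Gfi1b and of the upstream start of Tal1 held 1 GATA core each. The window of the other Tal1 start, which is not shown, held no match. RefSeq windows were found for 7 of the 10 factors, 12 windows in all, and GATA letters stood in 3 of the 12, ETS letters in 4, E-box letters in 3 and Runx letters in 0. Among 32851 windows of all genes the shares were 16.6%, 39.2%, 44.8% and 14.0%. These matches describe letters only, and no match says nothing about the factor.

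Cbfb, the partner that Runx1 needs on DNA, gave 11.54 on array 1 and 11.66 on array 2. Runx3, a relative of Runx1 in T cells and sensory neurons that was named after its value was seen, gave 8.12 and 7.96 with its highest probe set and 6.21 with the other. Every probe set of Cbfb and Runx3 was above 5 on array 1 and array 2, with adjusted p of limma of 9.0e-08 for Cbfb and 8.7e-07 for the highest probe set of Runx3.

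Genes of the complex around Tal1 lay on different sides of 5. Tal1, the basic helix-loop-helix factor that starts blood development, gave 4.72 and 4.73 with its single probe set, below 5 on both arrays (mean 4.72 ± 0.0062, SD, n = 2 arrays; adjusted p = 0.012 from limma). Of 84 receptor probe sets, 20 were at or above this level. Lyl1, which can stand in for Tal1 in adult blood stem cells, gave 5.48 and 5.38, a mean of 5.43 ± 0.07 that was above 5 (adjusted p = 0.0026) and was reached by 10 receptor probe sets. Lmo2, the LIM protein that bridges the complex, gave 6.44 and 6.43, a mean of 6.43 ± 0.009 (adjusted p = 1.2e-05) that 2 receptor probe sets reached. No other probe set named Tal1, Lyl1 or Lmo2 alone, so no other reading of them was available here.

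The partners that are not particular to blood were all above 5 on both arrays. Ldb1, which joins Lmo2 to chromatin loops, was at 8.30 ± 0.092 (SD, n = 2 arrays), beside 10.23 and 9.10 for Ssbp2 and Ssbp3, which bind it. The E proteins Tcf3 and Tcf12, with which Tal1 and Lyl1 pair, were at 9.63 and 11.32. Cbfa2t3, a corepressor of this complex in erythroid and platelet precursors, was the lowest partner at 7.15 ± 0.092, and its other 3 probe sets were at 5.51, 5.24 and 4.29, while its relative Cbfa2t2 was at 8.84. Of the GATA factors, Gata2, the factor of blood stem cells, gave 7.59 and 7.46, with 6.15 as the mean of its other probe set. Gata1, the erythroid factor, gave 6.49 and 6.28, and Gata3, the factor of T cells named after its value was seen, was at 5.25. Klf1, an erythroid factor that works with Gata1, gave 5.69 and 6.10. The level of each of these genes exceeded 5 on array 1 and array 2, and limma counted them above as well, Gata3 with an adjusted p of 0.017. The means of Gata1, Klf1 and Gata3, at 6.38, 5.90 and 5.25, lay under the 6.92 of the receptor Vmn1r44. Those of Klf1 and Gata3 also lay under 6.04, the 95th percentile of the receptor probe sets. The mean of Gata2, 7.52, lay above both.

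Of 16 partners and cofactors, 16 were above 5 and 15 above 8 on both arrays, beside 71.2% and 37.0% of all genes, and their median of 9.68 lay above the median of all genes. Hdac1 and Hdac2, histone deacetylases, were at 10.55 and 11.67. Kdm1a and Rcor1, a histone demethylase and its scaffold through which Gfi1b represses, were at 10.97 and 9.76. Chd4 and Sin3a, chromatin factors that Ikzf1 recruits, were at 9.74 and 9.09. Crebbp and Ep300, acetyltransferases that bind Myb, were at 9.23 and 8.95. These genes are used in most cell types. Some of their other probe sets were far lower, such as 4.81 for Hdac2 and 4.16 for Ssbp2.

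The ETS members lay near or below the limit. Spi1, the factor of myeloid and B cells, gave 5.73 and 5.65, a mean of 5.69 ± 0.055 (SD, n = 2 arrays; adjusted p = 2.9e-04 from limma) that 6 of 84 receptor probe sets reached. Fli1 gave 4.94 and 4.82 with 1422024_at and 3.46 and 3.34 with 1433512_at. The higher mean, 4.88 ± 0.086, was not separated from 5 (adjusted p = 0.18), and the lower, 3.40 ± 0.086, was below it (adjusted p = 1.0e-05). The gap between them was 1.48 on either array. Erg gave 5.10 and 5.01 with 1425370_a_at, a mean of 5.06 ± 0.063 that was not separated from 5 (adjusted p = 0.46), and 4.31 and 4.38 with 1440244_at. The call of Erg as above the limit rests on the value of 5.01 on array 2. Of relatives with wider use, Ets1 was at 9.15, Ets2 at 8.79 with other probe sets at 6.77 and 3.60, and Etv6, a repressor needed in the adult marrow, at 8.26. The lymphoid and splenic relatives of Spi1, Spib and Spic, both named after their values were seen, were at 4.17 and 4.08.

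Gfi1b, the repressor of erythroid cells and platelet precursors, gave 6.04 and 6.32 with its single probe set, a mean of 6.18 ± 0.20 (SD, n = 2 arrays; adjusted p = 9.4e-05 from limma). Of the receptor probe sets, 2 were at or above it. Its relative Gfi1, a repressor of stem cells and granulocytes, gave 3.93 and 3.72 and lay below 5 (adjusted p = 6.0e-05). Ikzf1 gave 6.77 and 6.55 with 1421303_at (mean 6.66 ± 0.15; adjusted p = 1.5e-05), while 1436312_at gave 4.81 and 5.03 (mean 4.92; adjusted p = 0.4). The gap between the probe sets of Ikzf1 was 1.95 on array 1 and 1.53 on array 2, the widest on array 1 among the 5 factors with several probe sets. Its relative Ikzf5, found in many tissues, was at 9.10, and Ikzf3, a factor of mature lymphocytes named after its value was seen, gave 5.96 and 5.07, with its other probe sets below 5 on both arrays, the lowest at 3.60.

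Myb gave 4.85 and 5.24 with 1421317_x_at, a mean of 5.04 ± 0.28 (SD, n = 2 arrays) that was not separated from 5 (adjusted p = 0.72 from limma). The suffix _x_at marks probe sets in which some probes also match other sequences. Its other probe sets were below 5 on both arrays, with 3.47 and 3.99 for 1450194_a_at and 3.51 and 3.22 for 1422734_a_at (adjusted p = 3.3e-04 and 2.5e-05). The difference of 1450194_a_at between the arrays, -0.52 as array 1 minus array 2, was the largest of the 20 member probe sets, and 1.95% of all probe sets differed by as much. Mybl2, the relative of Myb in dividing cells, and Mybl1, its relative in the testis, were at 6.68 and 5.77, both named after their values were seen.

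**Figure D3:**
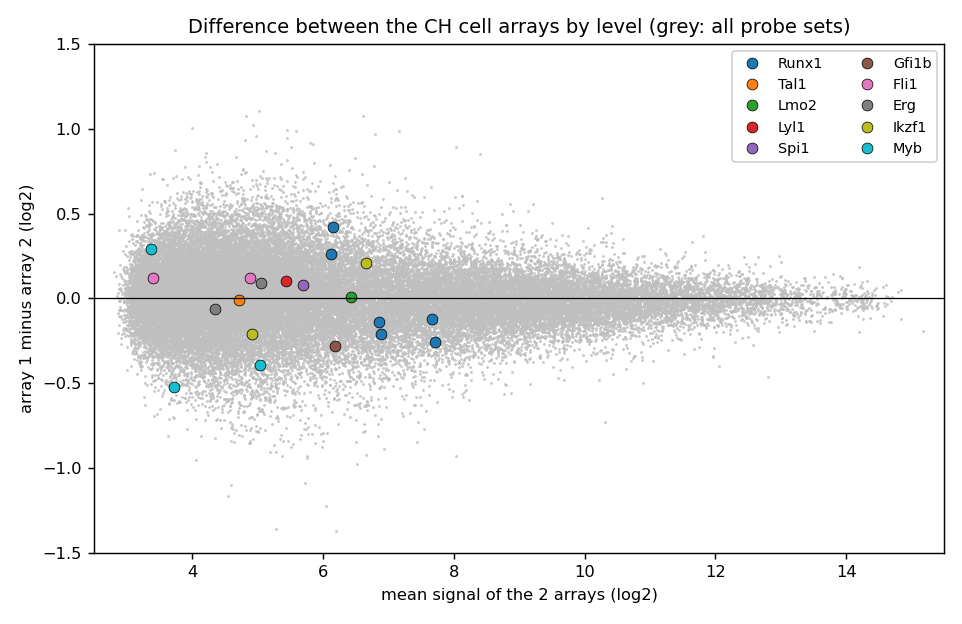
Difference of array 1 minus array 2 on the log2 scale against the mean of both arrays, with every probe set in grey and the 20 member probe sets in colour. Of the 20, 18 differ by less than 0.40. The probe sets of Runx1 lie on both sides of 0, and the lowest point is 1450194_a_at of Myb at -0.52.

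Over the 20 member probe sets, 10 were higher on array 1 and 10 on array 2, and the median size of the difference was 0.18, against 0.12 for all probe sets.

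Of the paralogs of the 10 factors, 16 of 18 had a probe set, and 11 of the 16 were above 5 on both arrays, beside 71.2% of all genes. Lmo4, a LIM protein of epithelia and brain, had the highest level of this list at 10.45 ± 0.11 (SD, n = 2 arrays). The paralogs not above 5 were Tal2, Spib, Spic, Lmo3 and Gfi1, at 4.39 to 3.82. If each gene was read by the median of its probe sets instead of the highest, the count of paralogs was 7.

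Of 22 further transcription factors of blood cells, 20 had a probe set and 17 of these were above 5, beside 71.2% of all genes, while limma counted 16, as Cebpa at 5.13 was lost (adjusted p = 0.13). Their median was 6.54, under the 6.84 of all genes. Mecom, a factor of blood stem cells that many other tissues use, gave 10.34 and 10.29, but its other probe sets had means of 5.78 and 3.73. Hlf, known in stem cells as well as in liver and brain, was read at 8.70 and 8.31 by its probe sets. Ebf1, a factor of B cells and of stromal and fat precursors, was at 7.83 with its highest of 5 probe sets and at 4.10 with its lowest. The factors not above 5 were Irf8, Irf4 and Nfe2, at 4.84, 4.64 and 4.18, which serve monocytes, plasma cells and platelet precursors in turn.

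Genes of the blood lineages, several of them known targets of the 10 factors, were read in the same way. Over 6 lists of blood lineages together, 57 of 66 genes had a probe set, and 33 of the 57 were above 5 on both arrays, beside 71.2% of all genes, with a median of 5.43. For the erythroid genes, which Tal1, Gata1 and Klf1 switch on, 1 of 7 was above 5: Epor, the receptor of erythropoietin, at 7.14 ± 0.18 (SD, n = 2 arrays). On array 1 alone the count was 2, since Ermap gave 5.11 there and 4.62 on array 2. Alas2, the heme synthesis enzyme of red cells, was at 4.91, Ermap and Epb42, of the red cell membrane, were at 4.86 and 4.62, and Hba-a1, an alpha globin gene named after its value was seen, was at 4.22. The list's median was 4.72 on array 1 and 4.62 on array 2.

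Genes of megakaryocytes and platelets, many of them bound by Runx1, Fli1 and Gata1, passed 5 in 8 of 9 cases, beside 71.2% of all genes, around a median of 6.10. Itga2b, the platelet integrin subunit, gave 7.18 and 7.19, and Ppbp, a platelet chemokine, 6.92 and 7.06. Gp9 and Gp1bb, subunits of the von Willebrand receptor, were at 6.41 ± 0.37 and 6.34 ± 0.16 (SD, n = 2 arrays). The other probe set of Gp1bb was at 4.82, below 5 on both arrays. The gene not above 5 was Gp6, the collagen receptor, at 4.61. At a limit of 6, 4 of the 9 passed, beside 57.8% of all genes, and at 8 the count was 0, beside 37.0%.

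Of 13 myeloid genes, many of them controlled by Spi1, 8 were above 5 and 1 above 8 on both arrays, beside 71.2% and 37.0% of all genes. That gene was Lyz2, the lysozyme of macrophages and neutrophils, at 9.58 ± 0.13 (SD, n = 2 arrays). Csf1r, the receptor of macrophage growth factor and a textbook target of Spi1 and Runx1, gave 7.49 and 7.35, with its other probe sets at 6.69 and 6.05. Laptm5 and Tyrobp, of leukocyte lysosomes and signalling, were at 6.69 and 6.34. Of 10 lymphoid genes, 3 were above 5, against the same 71.2%: Cd3e, of the T cell receptor, at 6.61, Igll1, of the pre-B cell receptor, at 5.92, and Dntt, the polymerase of receptor rearrangement, at 5.43. The other probe sets of Igll1, at 4.31, and of Dntt, at 4.09 and 4.03, were below 5 on both arrays. Cd79b lay on both sides of 5, with 4.89 and 5.47. Without probe sets of the suffixes _s_at, _x_at and _a_at, 1 of the 10 lymphoid genes was above 5.

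Among genes shared by leukocytes, 9 of 12 were above 5 and 3 above 8, beside 71.2% and 37.0% of all genes. These were Lsp1, Arhgdib and Cd53, at means between 9.01 and 8.25, Cd53 with another probe set at 3.55. Rac2, a GTPase of blood cells, was at 6.45, while Was and Hcls1, found in most leukocytes and named after their values were seen, were at 4.54 and 4.61. Of 6 surface genes of blood stem and progenitor cells, 4 were above 5, again beside 71.2%. Cd48 and Procr were at 9.66 and 9.15, Kit, the receptor of stem cell factor and a target of Tal1 and Myb, gave 6.96 and 7.04, and Flt3 was at 6.07. Cd34 was at 4.58 and Slamf1 at 4.47.

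Since several of the 10 factors also belong to endothelium, endothelial genes were read likewise. Of 15, 8 were above 5 on both arrays, beside 71.2% of all genes, and 7 by limma, with medians of 5.07 on array 1 and 5.20 on array 2. Flt1, Egfl7, Eng and Kdr, of which Flt1 and Kdr are receptors of vascular growth factor, were at 7.74, 7.32, 7.32 and 6.43. Cdh5, the cadherin that defines endothelial junctions, was at 5.13 (adjusted p = 0.15 from limma) and Pecam1 at 4.57. Genes of mesenchymal cells passed 5 in 10 of 10 cases and 8 in 7, beside 71.2% and 37.0% of all genes, around a median of 10.72, from Col1a2 at 14.27, Fn1 at 13.93, Col3a1 at 12.83 and Dcn at 11.99 down to Postn at 6.71. The part that cells of these kinds have in the levels of the 10 factors was not tested.

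**Figure D4:**
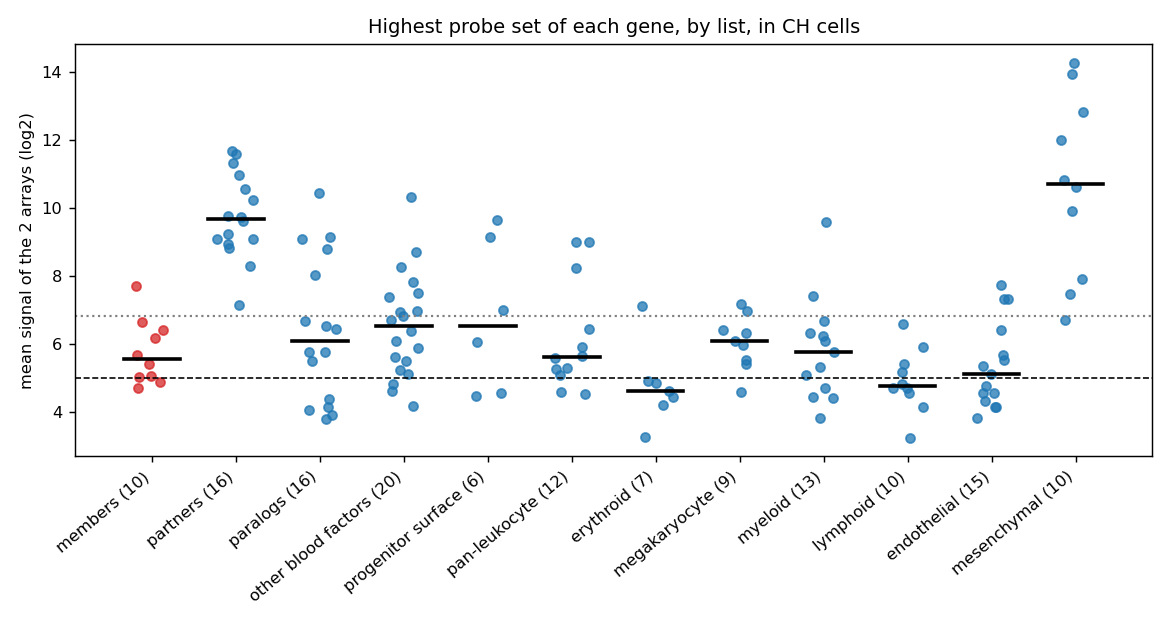
Level of each gene by list, as the mean log2 signal of its highest probe set, with the number of genes read in parentheses and a black bar at each median. A dashed line is drawn at 5 and a dotted one at 6.84, the median of all genes. The 10 factors, in red, have a median of 5.56, the partners one of 9.68, the erythroid genes one of 4.62 and the mesenchymal genes one of 10.72.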

How the data were processed

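CH cell RNA was hybridised to 2 Affymetrix mouse genome arrays. Values deposited by the authors are log2 signals of each probe set. RMA and quantile normalisation, run jointly with arrays of other cells, are named in their methods. Tool versions, and whether this run made the deposited table, are not given in the sources used here. A 3′ array of this kind does not tell transcripts of a gene apart. No slide or scan batch is given. The other populations were not analysed here.

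Of 45101 rows, 64 controls were left out. Of the rest, 34945 name 1 gene, 932 several and 9160 were not listed. Symbols were matched to GRCm38.p6 by Entrez identifier (34741 probe sets, 0 symbols changed). A gene was read by its probe set of highest mean. limma 3.58.1 in R 4.3.3 fitted an intercept against 5, moderated the variance by empirical Bayes and adjusted two-sided p by Benjamini-Hochberg over all 45037 probe sets, at a threshold of 0.05, and was tested on simulated data. With 2 arrays, each SD rests on 1 degree of freedom. Each p tests the distance of a mean from 5, with a variance moderated over all probe sets. It takes in no spread beyond these pools. The members, lists and the limit were chosen with earlier results of these data known. Named were all members and partners, the top genes by mean of each other list, at most 4 a list, Gata1, Gata2, Klf1, Gfi1, Ptprc, Kit, Cd34, Pecam1, Cdh5 and the highest chemosensory gene. Others were named after their values were seen. Housekeeping, lineage antigen and mesenchymal lists served as checks. Genes of the lists without a probe set naming them alone were not analysed here. Python 3.11.15 with numpy 2.4.6, pandas 2.3.3 and matplotlib 3.10.9 was used.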

Additional observations from a re-analysis of the deposited data

How the results depend on the processing

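No paired analysis was possible because both arrays belong to a single group. Renewed quantile normalization and limma in place of the call on both arrays moved no count of genes by list, nor that of member probe sets, by over 1.5 times. The removal of _s_at, _x_at and _a_at probe sets moved 3 of the smaller lists, to 1 of 10 lymphoid genes, 2 of 4 progenitor surface genes and 1 of 2 housekeeping genes that still had a probe set. It also left no probe set of Lmo2 and Myb and put Erg below 5 by -0.65. Other limits admit fewer genes by construction. At 6, the counts were 4 of 10 members, 7 of 20 member probe sets, 4 endothelial genes, 19 blood lineage genes and 4 chemosensory genes, and relative to that limit Lyl1, Spi1, Erg and Myb turned to -0.57, -0.31, -0.94 and -0.96. At the 95th percentile of chemosensory probe sets, 6.04, the counts were 3 members, 6 member probe sets, 4 endothelial, 18 blood lineage and 4 chemosensory genes, and Lyl1, Spi1, Erg and Myb stood at -0.61, -0.35, -0.98 and -1.0. Here Gfi1b was lost as well, since its value on array 1 was 6.04. At 8, the counts were 0 members, 0 member probe sets, 0 endothelial and 0 chemosensory genes, 6 blood lineage genes, 4 paralogs and 3 other blood factors, and Runx1, Ikzf1, Lmo2, Gfi1b, Spi1, Lyl1, Erg and Myb stood at -0.28, -1.34, -1.57, -1.82, -2.31, -2.57, -2.94 and -2.96. With each gene read by its median probe set, 7 paralogs were above 5, and Erg and Myb stood at -0.30 and -1.25 from 5. With 1 array left out, erythroid genes were 2 of 7 on array 1 alone, lineage antigen genes 1 of 3 on array 2 alone, and the count of members was 7 or 8, since Myb stood at 0.24 on array 2 and at -0.15 on array 1. Signal over background limits the members near 5, and the 2 arrays limit the precision of every level.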

Other observations

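Several regulators of blood and stromal cells had a single probe set far above their others. Bcl11a is a repressor of fetal globin genes that lymphocytes and brain also use. The highest of its 7 probe sets had a mean of 7.39, and the other 6 had means between 4.41 and 3.34. This highest probe set carries the suffix _x_at, so some of its probes also match other sequences. Whether its signal comes from Bcl11a was not tested. The 4 probe sets of Ssbp2 read 10.23, 5.36, 4.50 and 4.16, and those of Mecom 10.32, 5.78 and 3.73. Ikzf2, a relative of Ikzf1 in regulatory T cells, was at 6.45, 4.15 and 3.81. By contrast, all 3 probe sets of Rcor1 lay between 9.76 and 8.80, and all 6 of Runx1 between 7.72 and 6.12. Both arrays gave these levels alike, with an SD of 0.16 or less for the highest probe sets of Bcl11a, Ssbp2, Mecom and Ikzf2, and what the low probe sets read was not tested.

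Hhex, a homeobox factor of early endoderm and of the precursors of blood and vessels, gave 6.88 and 7.02, and Meis1, a partner of Hox proteins in blood stem cells, gave 6.66 and 6.73 with 1 probe set, with the other probe sets at 5.12 and 4.51. Prdm16, a factor of stem cells and brown fat, was at 6.98 with its highest of 4 probe sets and at 5.10 with its lowest. Zfpm1, the cofactor of Gata1, was at 6.11 and 5.46. Each of these genes passed 5 on array 1 and array 2, and each was named after its values were seen.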
